A study of Mus musculus with 12 samples.

Results

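Collagens are the proteins that give connective tissue, tumour stroma and vessel walls their frame. A collagen molecule is a triple helix of alpha chains, each chain the product of its own gene, and the helix can join copies of a single chain or chains of different genes. The genes were taken from the deposited count table by name, as all protein coding genes with a symbol of the form Col, a number, a and a number. That rule found 44 of 45777 genes, namely 11 chains of fibrillar collagens, 8 of basement membrane collagens and 25 of other collagens. A low-count filter left 37 of them for testing (10 fibrillar, 6 basement membrane and 21 other) among 17885 genes in all.

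RNA was counted in 12 libraries from subcutaneous tumours of 393P, a mouse lung cancer cell line. The hosts were male 129S2/SvPasCrl mice aged 8 weeks, injected in the flank. The injected cells were either MAVS knockout (titled Luc in the sample names, a term the labels do not define) or MAVS reconstituted. MAVS is the mitochondrial adaptor through which RIG-I-like sensors of cytosolic RNA signal. Each genotype was studied under control treatment (titled Veh) and under BAY-1217389, which blocks MPS1, a kinase of the mitotic spindle checkpoint, given at 5 mg/kg 2 times daily for 2 days with harvest on the day after. This makes 4 groups of 3 libraries: knockout control, knockout inhibitor, reconstituted control and reconstituted inhibitor. The stated question was which expression changes after pulsed MPS1 inhibition depend on MAVS. Since genotype came with the injected cells, MAVS cannot be told apart from whatever else sets the knockout and reconstituted populations apart. The labels do not say that each library came from its own animal, so the p-values reflect only how far these libraries scatter, which may be technical.

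In a tumour piece, collagen RNA comes from several cells. Fibroblasts make most of the fibrillar chains and of collagen VI, endothelial and mural cells make basement membrane chains, and carcinoma cells can make both kinds. These are whole-tissue libraries, in which fewer cells of a type and less RNA per cell cannot be told apart. Library totals ran from 52983715 to 69108411 counts, and levels are given below as CPM, the usual depth-scaled count, after scaling by the trimmed mean of M values (TMM). At these depths 3 counts corresponded to 0.0422 to 0.0593 CPM.

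One library stood apart for the collagens before any comparison was made. Collagen genes took 1.40% to 2.59% of all counts in 11 libraries and 0.534% in reconstituted inhibitor replicate 1. In that library 24 of the 37 tested collagen genes had their lowest level of all 12 libraries, and 29 of 37 lay below the mean log2 level of the other 2 libraries of its group. The median distance was -1.27 log2 units (fibrillar -1.47, other -1.32, basement membrane -0.03). The basement membrane genes were split, with Col4a1 (-0.35), Col4a2 (-0.47) and Col18a1 (-0.35) below and Col15a1 (0.39), Col4a4 (0.29) and Col4a5 (0.66) above. The summed level of 11 fibroblast markers in that library was 560.1 CPM, against 1433 to 2545 CPM in the other 11 libraries. Its sum of 10 skeletal muscle markers was 2713 CPM, against 3.08 to 825 CPM. Among the fibroblast markers Pdgfra, Dcn, Lum, Thy1, Postn, Pdpn and Lrrc15 had their lowest level there, and Postn (295 CPM) was the largest part. Fap, Pi16, Mfap5 and Dpt did not have their lowest level there. The sum of 10 endothelial markers, 212 CPM, lay within the range of the others (189 to 303 CPM), and that of 6 epithelial markers was 7612 CPM against 4749 to 6059 CPM. The epithelial list was split, as the keratins Krt8, Krt18 and Krt19 were highest in that library and Cdh1 was lowest (172 CPM). Epcam and Cldn4 lay within the range of the others. None of these 4 lists had a marker at 0 in all libraries. Their part in the collagen values was not tested. Medians of differences that involve this group are therefore given with and without that library, as are the differences of several single genes.

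**Figure D1:**
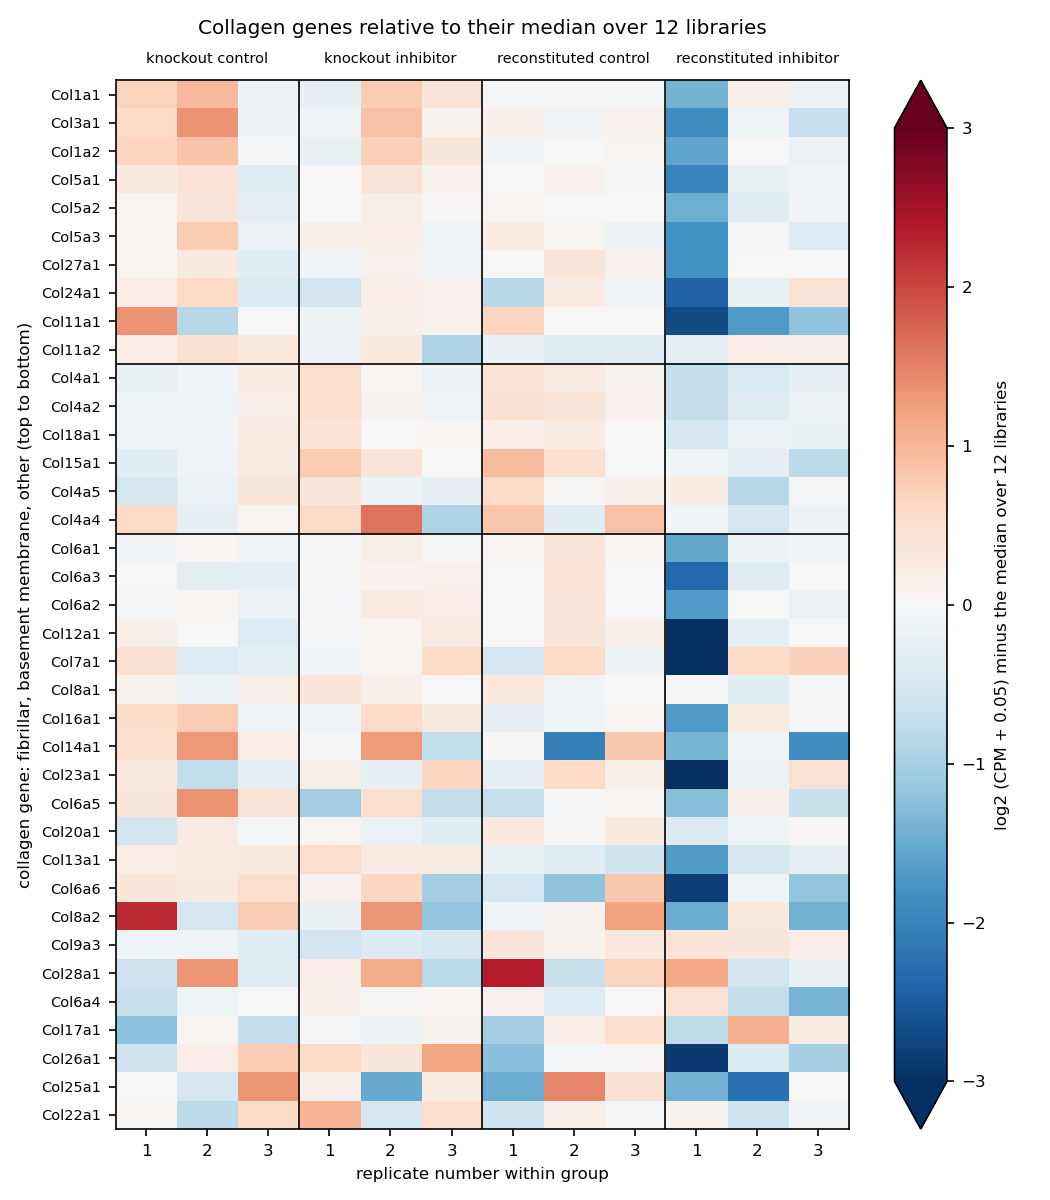
Level of each tested collagen gene in each of the 12 libraries, as log2(CPM + 0.05) minus the gene's median over the libraries, with genes in rows by class and by mean level and replicates in columns by group. The first reconstituted inhibitor library is dark blue for most fibrillar and other chains, and the basement membrane rows are pale blue across most of the 3 libraries of that group.

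Fibrillar collagens form the striated fibrils of stroma. Collagen I, built from the chains of Col1a1 and Col1a2, is the main one, collagen III (Col3a1) joins it in soft tissue, and collagen V (Col5a1, Col5a2, Col5a3) and collagen XI (Col11a1, Col11a2) nucleate the fibrils and limit their width. Levels were divided by exon length, with the exons of all annotated transcripts of a gene merged. That length was 6563 bases for Col1a1, 12426 for Col1a2 and 4380 for Col6a1, so the order below depends on the annotation too. On this scale Col1a1 was highest, with a mean level of 496 CPM per kilobase over the 12 libraries. Col3a1 followed at 316, Col6a1 at 225 and Col1a2 at 222 CPM per kilobase. Then came Col4a1 at 132, Col6a2 at 104, Col4a2 at 94.9, Col6a3 at 81.8, Col5a1 at 78.5 and Col18a1 at 73.7 CPM per kilobase. The order of neighbours such as Col6a1 and Col1a2, or Col6a3 and Col5a1, was not tested. The SD between libraries of a group was 0.42 log2 units for Col6a1, 0.55 for Col1a2, 0.66 for Col6a3 and 0.58 for Col5a1. This is the spread of each gene alone and not that of a ratio of genes within a library. Col1a1, Col1a2 and Col3a1 together held 43.8% to 66.5% of all collagen counts in a library.

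Col1a1 (chromosome 11, 94936224 to 94953042, plus strand, GRCm38.p6) stood at 4559, 5642 and 2567 CPM in the knockout control libraries, 2399.6, 4884 and 3664 in knockout inhibitor, 2769, 2953 and 2771 in reconstituted control, and 1077, 3234 and 2569 in reconstituted inhibitor. All 4 groups overlapped, and the knockout groups varied more between libraries than the reconstituted controls did. Col1a2 (chromosome 6, 4505618 to 4541543) gave 3871, 4497 and 2377 CPM, then 2134, 4108 and 3135, then 2364, 2491 and 2650.0, and 837, 2488 and 2187 CPM in the same group order. Its libraries lay in nearly the order of those of Col1a1. The count ratio of Col1a1 to Col1a2 stayed between 1.05 and 1.30 over the 12 libraries while the levels of the 2 genes varied 5.24-fold and 5.37-fold. Collagen I is made of these chains in a fixed proportion in its usual form.

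Col3a1 (chromosome 1, 45311538 to 45349706, plus strand) stood at 4029, 6949.5 and 2449.8 CPM in knockout control, 2534, 4968 and 2899 in knockout inhibitor, 3024, 2505 and 2983 in reconstituted control, and 744, 2473 and 1688 in reconstituted inhibitor. The 3 reconstituted inhibitor libraries lay below those of reconstituted control and below those of knockout inhibitor, in the first case by a narrow gap (2473 against 2505 CPM). Col5a1 (chromosome 2, 27886381 to 28039510, plus strand) gave 828, 907 and 539 CPM, then 664, 874 and 739, then 678, 728 and 660.3, and 168, 584 and 632 CPM. Here too the reconstituted inhibitor libraries were below both groups, 2 of them close to the others and replicate 1 far below.

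Among the lower fibrillar chains, Col11a1 (chromosome 3, 114030479 to 114220756, plus strand), a chain known from cartilage and from activated tumour fibroblasts, showed a wide separation. Its levels were 9.90, 2.12 and 3.86 CPM in knockout control, 3.47, 4.27 and 4.12 in knockout inhibitor, 6.03, 3.88 and 3.84 in reconstituted control, and 0.553, 1.15 and 1.65 in reconstituted inhibitor. All 3 reconstituted inhibitor libraries lay below each of the other 9. Its partner Col11a2 (chromosome 17, 34038919 to 34066684) did not share this pattern, with 1.77, 2.12 and 1.92 CPM in knockout control, 1.35, 1.89 and 0.786 in knockout inhibitor, 1.33, 1.20 and 1.20 in reconstituted control, and 1.26, 1.77 and 1.73 in reconstituted inhibitor. The remaining fibrillar genes ranged over the libraries from 230.0 to 832 CPM (Col5a2), 86.8 to 520.3 (Col5a3), 7.79 to 35.4 (Col27a1) and 1.36 to 11.5 (Col24a1). Each of these 4 had its lowest level in reconstituted inhibitor replicate 1. Col2a1, the main cartilage collagen, had 0 to 4 counts in a library and was not tested.

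The bases just before the RefSeq start of 3 fibrillar genes are shown because in each the reconstituted inhibitor libraries all lay below those of reconstituted control and of knockout inhibitor. Col5a2 also met this condition and is not shown. The sequences are RefSeq's, from GRCm38.p6, on the plus strand, and capitals mark matches, on either strand, to the TATA box letters TATAAA, to the GC box letters GGGCGG and to the CCAAT box.
Col3a1, chr1:45311338-45311537: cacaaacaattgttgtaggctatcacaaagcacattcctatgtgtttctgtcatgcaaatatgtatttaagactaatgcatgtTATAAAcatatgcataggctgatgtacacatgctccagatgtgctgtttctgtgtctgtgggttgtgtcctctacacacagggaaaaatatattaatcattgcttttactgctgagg
Col5a1, chr2:27886181-27886380: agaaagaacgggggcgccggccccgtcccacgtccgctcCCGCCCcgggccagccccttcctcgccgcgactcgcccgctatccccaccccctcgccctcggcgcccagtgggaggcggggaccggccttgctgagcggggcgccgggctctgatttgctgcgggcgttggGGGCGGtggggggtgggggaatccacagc
Col11a1, chr3:114030290-114030478: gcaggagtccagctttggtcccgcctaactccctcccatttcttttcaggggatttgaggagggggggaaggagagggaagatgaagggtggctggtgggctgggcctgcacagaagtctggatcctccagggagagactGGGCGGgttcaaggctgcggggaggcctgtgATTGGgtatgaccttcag
Col3a1 holds a TATAAA and no GC box, whereas Col5a1 holds 2 GC box matches, 1 on each strand, and Col11a1 a GC box and a CCAAT on the minus strand. In windows of 250 bases upstream of the annotated starts, searched on both strands, GGGCGG was found in 22 of 38 collagen windows (57.9%, from 35 of the 44 genes) and in 32.7% of all 32851 windows. For CCAAT the shares were 13 of 38 (34.2%) and 33.8%, and for TATAAA 5 of 38 (13.2%) and 12.4%. These matches are a description of the letters, not of binding.

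Basement membrane collagens form sheets rather than fibrils. Collagen IV, built in most tissues from chains of Col4a1 and Col4a2, is the network on which laminin and nidogen assemble under endothelium and epithelium. Collagens XV (Col15a1) and XVIII (Col18a1) carry heparan or chondroitin sulphate and link that sheet to the tissue around it. Col4a1 and Col4a2 lie head to head on chromosome 8 (Col4a1 from 11198423 to 11312889 on the minus strand, Col4a2 from 11312805 to 11449287 on the plus strand), and their RefSeq spans overlap by 85 bases. The stretch from the listed Col4a2 start to the listed Col4a1 start, shown because it lies in the first exons of both genes, holds a GC box in capitals.
Col4a2 to Col4a1 start, chr8:11312805-11312826: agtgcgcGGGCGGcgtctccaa
Of the annotated exon bases, 22 of Col4a1 (0.29% of its exon length) and 65 of Col4a2 (0.98%) were shared with exons of antisense genes.

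Col4a1 gave 838, 932 and 1142 CPM in knockout control, 1370.3, 1032 and 867 in knockout inhibitor, 1293, 1163 and 1064 in reconstituted control, and 597, 712 and 813 in reconstituted inhibitor. The group means were 970.4 ± 156, 1090.0 ± 256, 1173 ± 115 and 707 ± 108 CPM (SD, n = 3). Col4a2 gave 559, 555 and 684 CPM, 844, 652 and 565, 839.8, 778 and 662, and 370.1, 479 and 551 CPM, in the same order. For both genes all 3 reconstituted inhibitor libraries lay below each of the other 9, and replicate 1 was not far from its group (-0.35 log2 units for Col4a1 and -0.47 for Col4a2 against the mean of the other 2). The count ratio of Col4a1 to Col4a2 ran from 1.48 to 1.68 while the genes varied 2.29-fold and 2.28-fold.

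Col18a1 (chromosome 10, 77052178 to 77166530) gave 471, 484 and 604 CPM in knockout control, 682, 509 and 529 in knockout inhibitor, 585, 591 and 509 in reconstituted control, and 351, 453 and 441 in reconstituted inhibitor. It too was lower in all 3 reconstituted inhibitor libraries than in any of the other 9. Col15a1 (chromosome 4, 47207655 to 47313167) gave 83.0, 95.8 and 123 CPM, 175, 136 and 103, 200.5, 146 and 104, and 94.0, 85.5 and 60.0 CPM. Its reconstituted inhibitor libraries lay below those of reconstituted control and of knockout inhibitor, but overlapped those of knockout control.

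With Col11a1, these make 4 of 37 tested collagen genes (Col4a1, Col4a2, Col18a1 and Col11a1) for which the reconstituted inhibitor group lay below all other libraries. Of all 17885 genes tested, 3.04% did so. The opposite order, above all others, was found for 0 of 37 collagen genes and 2.92% of all genes. Of the remaining basement membrane chains, Col4a5 ranged from 12.4 to 33.2 CPM and Col4a4 from 0.0873 to 0.751 CPM, each with overlapping groups, and Col4a3 (0 to 10 counts a library) and Col4a6 (0 to 4 counts) were not tested.

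**Figure D2:**
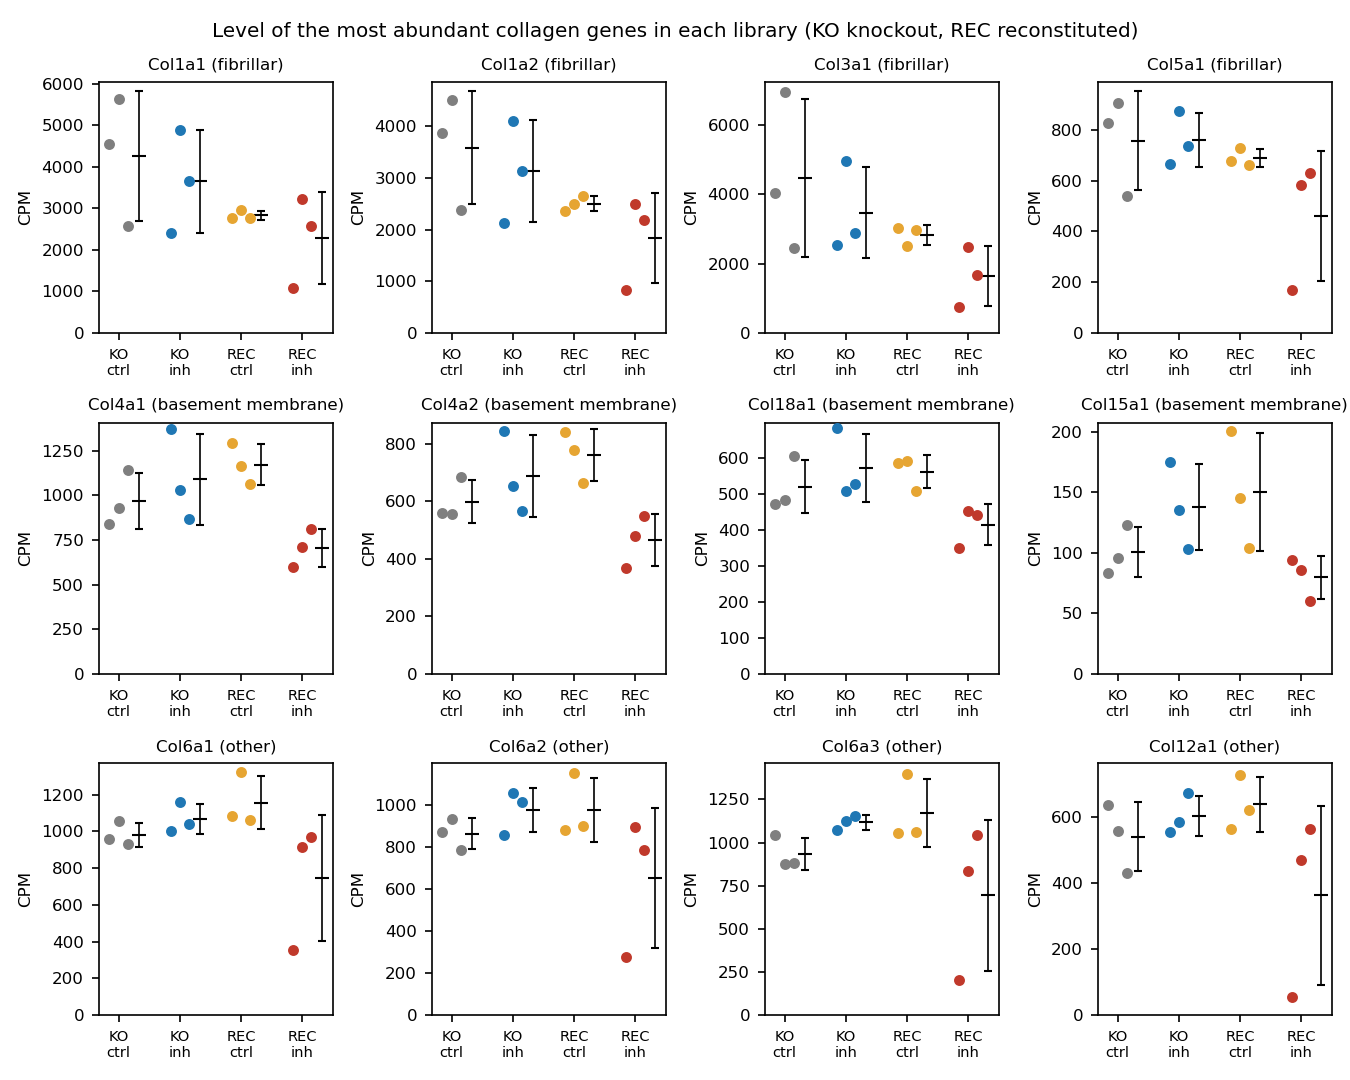
CPM of the 4 most abundant genes of each collagen class in each library, 1 point per library, with the mean and 1 SD of each group of 3 to the right of its points, for knockout (KO) and reconstituted (REC) tumours under control treatment (ctrl) and the inhibitor (inh). Col4a1, Col4a2 and Col18a1 have all 3 reconstituted inhibitor points below the other 9, whereas in Col5a1, Col6a3 and Col12a1 the group's low mean comes with 1 point far below the other 2.

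Other collagens include the microfibrils of collagen VI, the chains that coat fibrils (the FACIT family, with Col12a1 and Col14a1), anchoring fibrils of collagen VII (Col7a1), the short-chain networks of collagen VIII and the transmembrane collagens. Collagen VI joins the chains of Col6a1 and Col6a2 to that of a further gene, most often Col6a3. Col6a1 (chromosome 10, 76708792 to 76726044) gave 958, 1055 and 931 CPM in knockout control, 1004, 1159.7 and 1039 in knockout inhibitor, 1082, 1321 and 1062 in reconstituted control, and 354, 915 and 970.1 in reconstituted inhibitor. Col6a2 (chromosome 10, 76595756 to 76623630) gave 874, 934 and 787 CPM, 858, 1057 and 1017, 883, 1156 and 899, and 275, 899 and 788 CPM. Replicate 1 of the last group lay far below, and the other 2 libraries of that group were at or just below the level of the rest.

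Col6a3 (chromosome 1, 90766860 to 90844001) gave 1044, 875 and 882 CPM in knockout control, 1070.3, 1125 and 1156 in knockout inhibitor, 1054, 1399 and 1059 in reconstituted control, and 204, 836 and 1045 in reconstituted inhibitor. Its ratio to Col6a1 was 0.575 in reconstituted inhibitor replicate 1 and 0.830 to 1.11 in the other 11 libraries, whereas the ratio of Col6a1 to Col6a2 ran from 1.02 to 1.29 over all 12. Col5a1 against Col5a2 had its lowest ratio, 0.729, in the same library, and 1.02 to 1.23 elsewhere. In that library Col1a1 to Col1a2 and Col4a1 to Col4a2 lay within the range of the other 11, at 1.29 and 1.61.

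**Figure D3:**
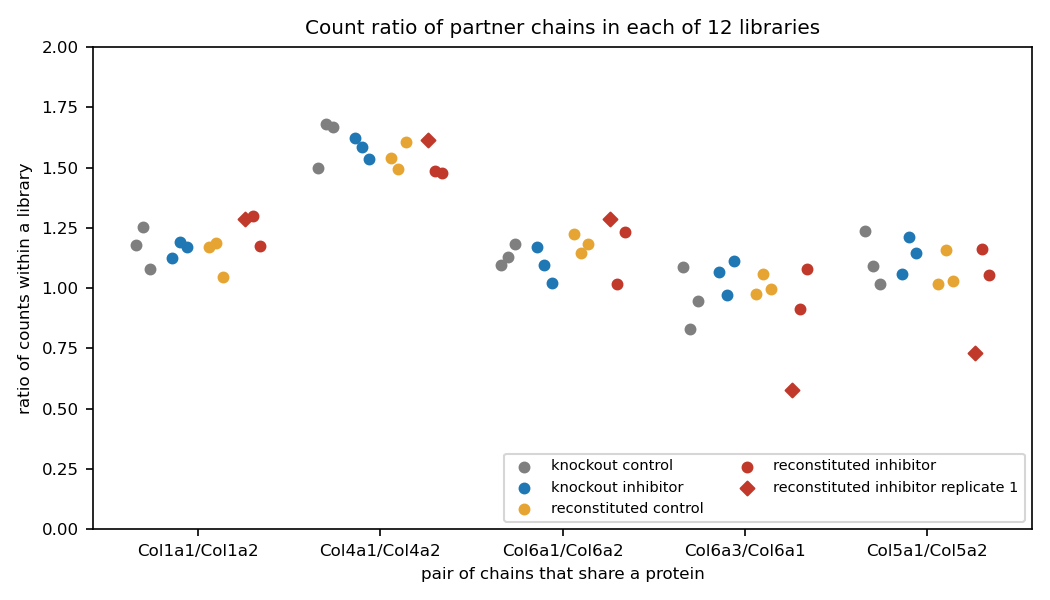
Ratio of counts of partner chains within each library, 1 point per library, coloured by group, with reconstituted inhibitor replicate 1 as a diamond. Col1a1 to Col1a2 and Col4a1 to Col4a2 vary little, and the diamond is the lowest point for Col6a3 to Col6a1 (0.575) and Col5a1 to Col5a2 (0.729).

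Col12a1 (chromosome 9, 79598987 to 79721141), a FACIT chain of dense connective tissue, gave 638, 557 and 430.0 CPM in knockout control, 555, 584 and 673 in knockout inhibitor, 565, 729 and 623 in reconstituted control, and 54.0, 471 and 565 in reconstituted inhibitor. Replicate 1 lay far below the other 11 libraries. Col7a1, with 41.8 CPM in that library and 239 to 552 CPM elsewhere, and Col23a1, with 1.60 against 19.8 to 51.4 CPM, were the other genes furthest below their group there (-3.67 and -4.48 log2 units, Col12a1 -3.25). Col8a1, a collagen of vessel walls, was the abundant exception, at 220.4 CPM in that library and 182 to 299.9 CPM in the others.

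Several less abundant genes of this class varied widely between libraries of a group. Col14a1 (chromosome 15, 55307644 to 55520803) gave 46.5, 82.5 and 38.2 CPM in knockout control, 32.9, 81.1 and 19.9 in knockout inhibitor, 34.0, 8.09 and 59.5 in reconstituted control, and 12.6, 31.0 and 9.21 in reconstituted inhibitor. Col6a5 (chromosome 9, 105856070 to 105962463) gave 28.1, 57.0 and 29.0 CPM, 10.8, 32.2 and 13.6, 13.7, 21.3 and 23.2, and 9.07, 24.7 and 14.0 CPM in the usual group order. The 3 knockout control libraries were above those of reconstituted control. Col8a2 (chromosome 4, 126286794 to 126314330) gave 7.18, 1.03 and 2.54 CPM, 1.29, 3.77 and 0.629, 1.37, 1.62 and 3.51, and 0.494, 1.83 and 0.521 CPM.

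The remaining tested genes of this class were Col16a1 (26.5 to 145 CPM), Col20a1 (6.59 to 11.6), Col6a6 (0.494 to 6.62), Col28a1 (0.227 to 2.44), Col6a4 (0.202 to 0.850), Col17a1 (0.114 to 0.763), Col26a1 (0 to 0.786), Col25a1 (0 to 0.605) and Col22a1 (0.0843 to 0.415), besides Col13a1 and Col9a3 described below. Col9a1, Col9a2, Col10a1 and Col19a1, chains of cartilage or of rare expression, had at most 15 counts in any library and were not tested.

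Summed by class, fibrillar chains reached 14325, 19398 and 8765 CPM in knockout control, 8736, 15948 and 11405 in knockout inhibitor, 9894, 9679.6 and 10022 in reconstituted control, and 3153, 9610.4 and 7949 in reconstituted inhibitor. Basement membrane chains reached 1967, 2086 and 2582 CPM, 3100.0, 2350.2 and 2083, 2952, 2701 and 2363, and 1439, 1742 and 1886 CPM. Other chains reached 4501, 4224 and 3778 CPM, 4304, 4846 and 4822, 4287, 5512 and 4427, and 1213, 4027 and 4318 CPM. The basement membrane sum was lower in all 3 reconstituted inhibitor libraries than in any other library, and so was not carried by replicate 1 alone. The fibrillar sums of the 2 further libraries of that group overlapped those of both knockout groups.

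**Figure D4:**
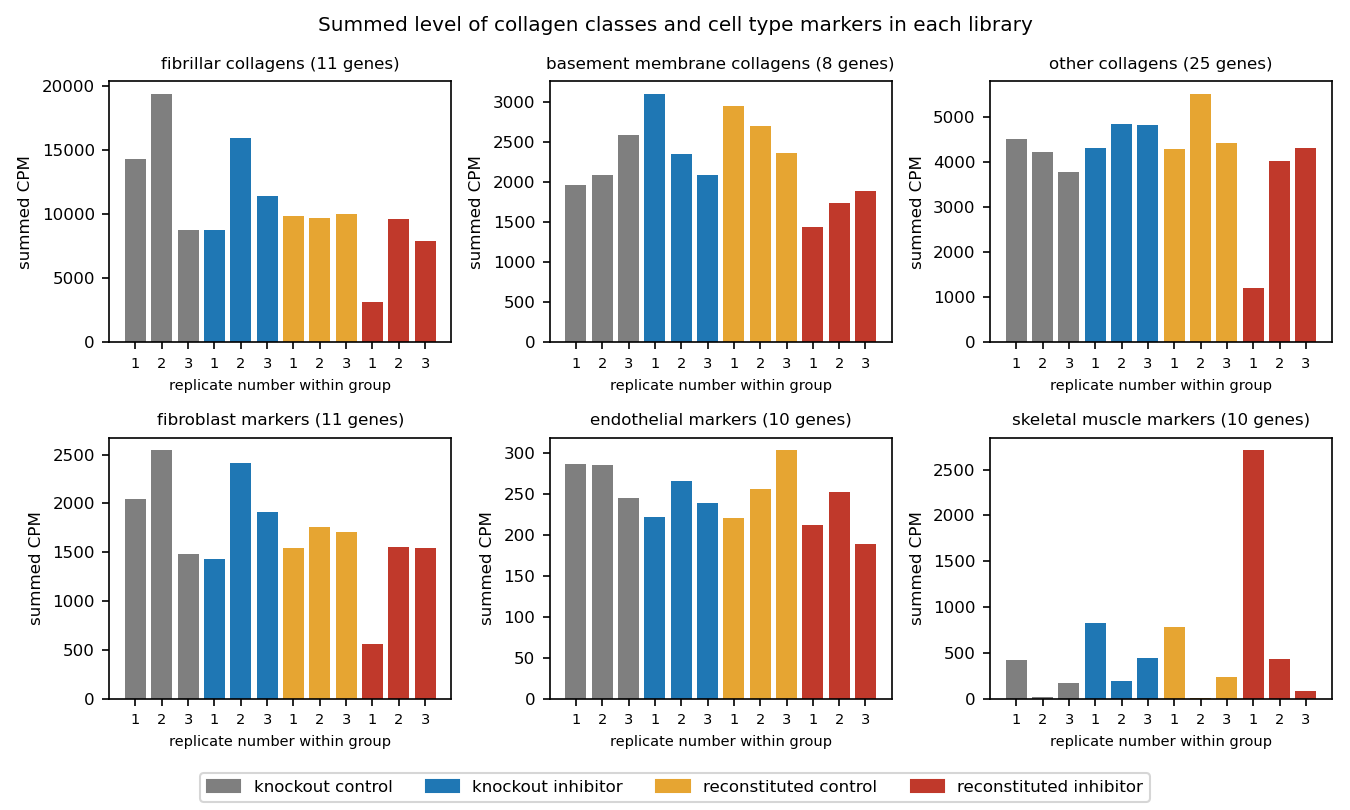
Summed CPM of the 3 collagen classes (upper row) and of fibroblast, endothelial and skeletal muscle marker genes (lower row) in each library, 1 bar per library, coloured by group, each panel with its own axis from 0. The first reconstituted inhibitor library is lowest for fibrillar, other and fibroblast sums and highest for skeletal muscle (2713 CPM), while its endothelial sum lies within the range of the others.

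Differences are given as log2 ± SE. The median over all genes tested lay between -0.01 and 0.01 in each of the 7 comparisons that follow. The MPS1 inhibitor effect in knockout tumours, knockout inhibitor against knockout control, was close to 0 for the collagens as a group. The median log2 difference over the 37 genes was 0.00, with -0.21 for fibrillar, 0.18 for basement membrane and 0.12 for other chains. With the quasi-likelihood F-test of edgeR and Benjamini-Hochberg adjustment over all genes, called at an adjusted p below 0.05, 0 of 37 were called, as were 0% of all genes. DESeq2 and limma-voom also called 0, and 0 of 37 had an unadjusted p below 0.05 (0.654% of all genes did so upward and 1.05% downward). Libraries of the 2 groups did not overlap for 2 genes higher under the inhibitor (Col6a3 and Col6a4, against a background of 4.47% of all genes) and 1 lower (Col9a3, 4.25%). With single libraries left out these counts reached 6 higher (without knockout control replicate 3; 4 without replicate 1 or 2 of that group) and 5 lower (without knockout inhibitor replicate 2; 2 without knockout control replicate 1 or 3). The largest differences among the better measured genes were those of Col6a5 (-1.02 ± 0.47, log2 difference ± SE), Col8a2 (-0.91 ± 0.80) and Col11a2 (-0.53 ± 0.28), each with an adjusted p of 1.

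In reconstituted tumours the inhibitor contrast was negative for 33 of 37 collagen genes, with a median of -0.58 (fibrillar -0.55, basement membrane -0.72, other -0.58). edgeR called 0 of 37 and 0% of all genes, the smallest adjusted p being 0.0729 both among collagens and over the whole table. The 3 lowest p values belonged to Col4a1 (-0.73 ± 0.18), Col4a2 (-0.70 ± 0.18) and Col11a1 (-2.03 ± 0.52), each with an edgeR adjusted p of 0.0729, followed by Col15a1 (-0.91 ± 0.27, 0.0733) and Col18a1 (-0.44 ± 0.15, 0.0818). At an unadjusted p below 0.05 there were 6 of 37 lower genes, against 15% of all genes, and none higher, against 17.6%. The fibrillar chains of high level were far from the threshold, with -0.30 ± 0.39 for Col1a1, -0.45 ± 0.37 for Col1a2 and -0.80 ± 0.44 for Col3a1. Col8a2 (-1.18 ± 0.82) and Col14a1 (-0.94 ± 0.71) had large differences with errors nearly as large.

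Groups that do not overlap are a second description of the same contrast. They were found for 11 of 37 genes lower under the inhibitor (14.8% of all genes) and 0 higher (14.7%), among them 4 of 6 basement membrane, 4 of 10 fibrillar and 3 of 21 other chains. Leaving out reconstituted inhibitor replicate 1 brought the fibrillar median to -0.17 and that of other chains to -0.30, while the basement membrane median stayed at -0.64. The median over all tested chains was then -0.30. Col4a1 was at -0.62 ± 0.19, Col4a2 at -0.56 ± 0.17, Col15a1 at -1.04 ± 0.30 and Col18a1 at -0.33 ± 0.15. Col11a1 was at -1.71 ± 0.54 and Col1a1 at 0.03 ± 0.32. Still 0 were called, the smallest edgeR adjusted p rising to 0.261, and 13 of the 37 genes were lower without overlap (17% of all genes) and 2 higher (17.3%).

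Calls in this contrast depended on the tool and on 1 library. DESeq2 called 5 of 37 (Col4a1, Col4a2, Col15a1, Col18a1 and Col11a1, all lower), against 20.5% of all genes called in either direction, and limma-voom 0. Without reconstituted inhibitor replicate 3, edgeR called 4 (Col4a1, Col4a2, Col11a1 and Col5a2), against 31% of all genes in either direction.

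The MAVS effect in control tumours, reconstituted control against knockout control, had opposite signs by class. So had the inhibitor contrast in knockout tumours above (fibrillar 9 of 10 negative, basement membrane 6 of 6 positive). That contrast has the same knockout control libraries as its reference, so the values of the 2 are not separate evidence. The median MAVS effect was -0.29 for the fibrillar chains (9 of 10 negative) and 0.34 for the basement membrane chains (6 of 6 positive). It was 0.13 for the others and 0.07 over the 37 genes. None of these genes was called by edgeR, DESeq2 or limma-voom, against 0.14% of all genes by edgeR (0.117% higher and 0.0224% lower), and the smallest edgeR adjusted p was 0.249 (Col9a3). At an unadjusted p below 0.05 there were 1 higher (8.85% of all genes) and 1 lower (9.89%). These counts were 4 and 4 when reconstituted inhibitor replicate 1, which enters only through the shared estimate of spread and the filter, was left out (1902 and 2193 of all 18354 genes then tested). Of single genes, Col1a1 had -0.59 ± 0.39, Col3a1 -0.66 ± 0.44, Col15a1 0.58 ± 0.27 and Col4a2 0.34 ± 0.18. Among the better measured genes the largest differences were those of Col6a5 (-0.97 ± 0.47), Col8a2 (-0.72 ± 0.80) and Col14a1 (-0.72 ± 0.70). Groups did not overlap for 3 genes higher in reconstituted tumours (Col6a1, Col6a3 and Col9a3, 15.6% of all genes) and 3 lower (Col6a5, Col11a2 and Col13a1, 15.5%). Without knockout control replicate 3 these were 7 higher and 9 lower, without knockout control replicate 2 there were 5 higher, and without reconstituted control replicate 3 there were 6 higher and 5 lower.

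Under MPS1 inhibition the MAVS contrast, reconstituted inhibitor against knockout inhibitor, was negative for 34 of 37 collagen genes. The medians were -0.62 for all 37, -0.67 for fibrillar, -0.59 for basement membrane and -0.59 for other chains. By edgeR 0 of 37 were called, against 0.649% of all genes (0.52% higher and 0.129% lower), and the smallest adjusted p was 0.0825 (Col9a3, higher by 0.86 ± 0.21). Col4a1 had -0.62 ± 0.18 with an edgeR adjusted p of 0.118, Col11a1 -1.82 ± 0.52 (0.118), Col18a1 -0.47 ± 0.15 (0.132), Col4a2 -0.56 ± 0.18 (0.135) and Col15a1 -0.79 ± 0.27 (0.153). Col3a1 stood at -1.08 ± 0.44, Col14a1 at -1.34 ± 0.71 and Col1a1 at -0.67 ± 0.39. At an unadjusted p below 0.05 there were 9 of 37 lower (8.99% of all genes) and 1 higher (10.7%).

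Libraries of these 2 groups did not overlap for 13 genes lower in the reconstituted tumours (9.77% of all genes) and 1 higher (10.9%). The 13 were Col4a1, Col4a2, Col15a1, Col18a1, Col3a1, Col5a1, Col5a2, Col11a1, Col6a1, Col6a3, Col8a1, Col13a1 and Col26a1. Without reconstituted inhibitor replicate 1 the median was -0.34 (fibrillar -0.31, basement membrane -0.47, other -0.24). In that fit 14 genes were lower without overlap (13.2%) and 3 higher (14.3%). Col4a1 then had -0.52 ± 0.19, Col4a2 -0.42 ± 0.17, Col18a1 -0.36 ± 0.15 and Col15a1 -0.92 ± 0.30. Col11a1 had -1.50 ± 0.54, Col3a1 -0.74 ± 0.40 and Col9a3 0.81 ± 0.23. DESeq2 called 6 lower and 1 higher (7 of 37, against 6.95% of all genes): Col4a1, Col4a2, Col15a1, Col18a1, Col11a1 and Col13a1 lower and Col9a3 higher. limma-voom called 0. Without reconstituted inhibitor replicate 3, edgeR called 5 (Col4a1, Col4a2, Col11a1, Col13a1 and Col9a3), against 15.4% of all genes. This contrast shares its reconstituted inhibitor libraries with the inhibitor contrast above, so the values of the 2 are not separate evidence.

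**Figure D5:**
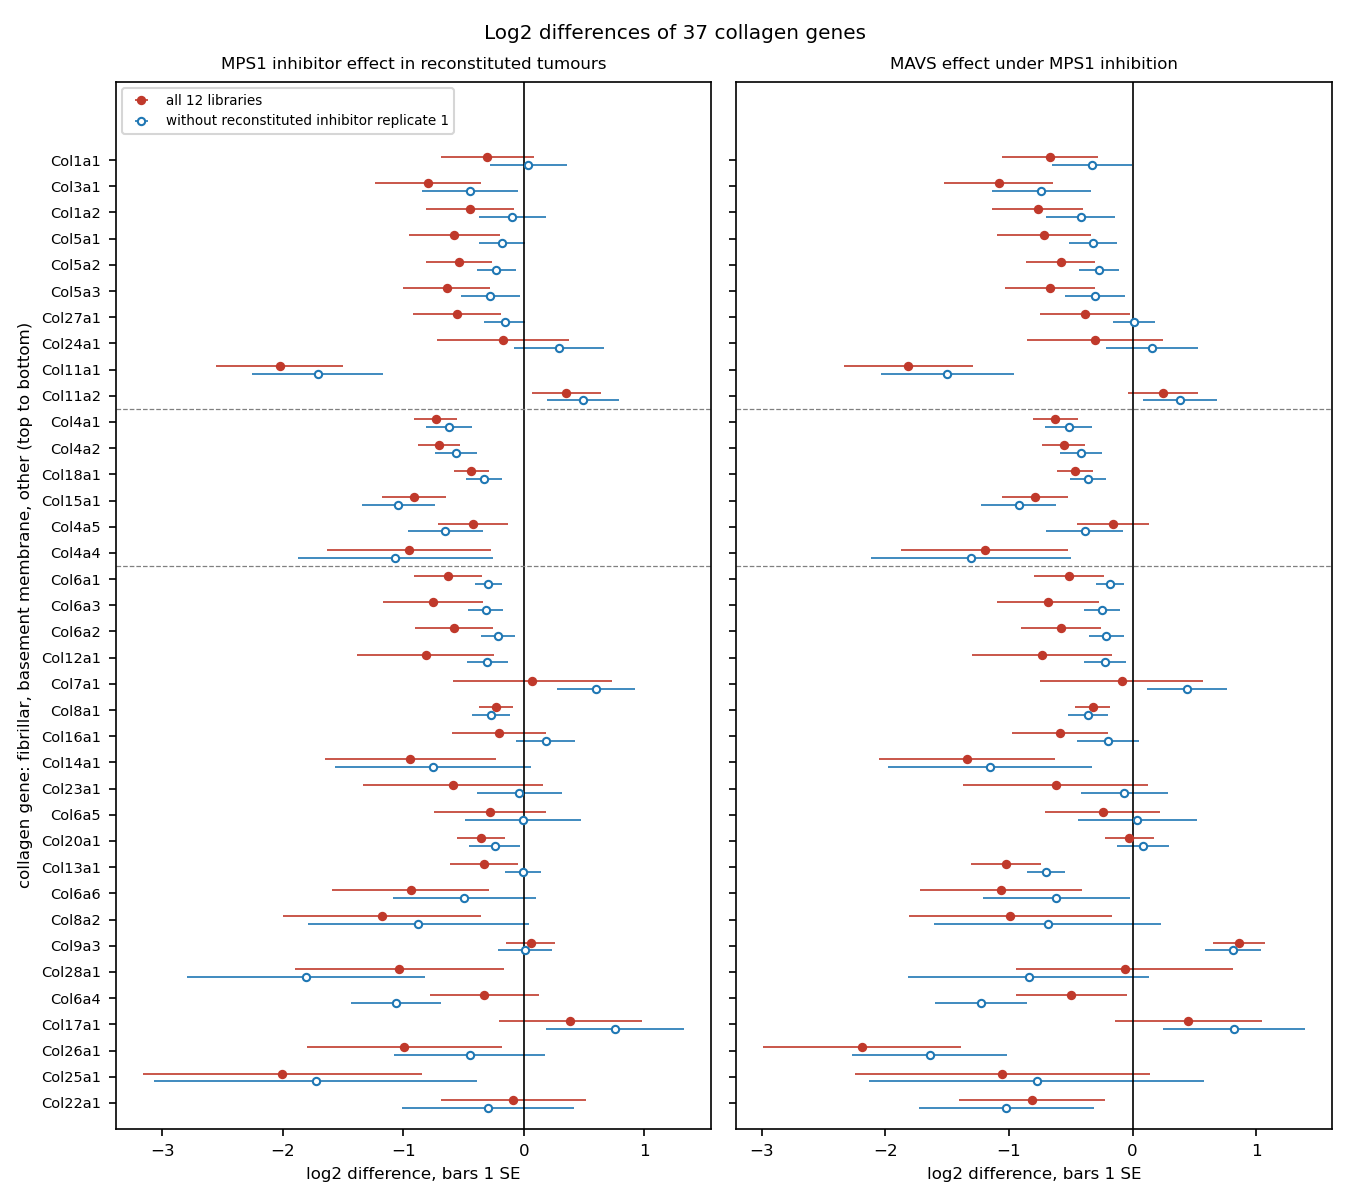
Log2 difference with 1 SE of each tested collagen gene for the inhibitor effect in reconstituted tumours (left) and the MAVS effect under inhibition (right), from all 12 libraries (filled) and without reconstituted inhibitor replicate 1 (open), with dashed lines between classes. Open points of most fibrillar and other chains lie closer to 0 than the filled ones, and those of Col4a1, Col4a2, Col18a1 and Col15a1 stay near them.

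The interaction asks whether the inhibitor effect differed between genotypes. Its median was -0.58 over the 37 genes, with -0.44 for fibrillar, -0.90 for basement membrane and -0.61 for other chains. By edgeR 0 of 37 and 0% of all genes were called. The smallest edgeR adjusted p, 0.144, was shared by Col15a1 (-1.36 ± 0.38), Col4a2 (-0.90 ± 0.25) and Col4a1 (-0.90 ± 0.25), and Col18a1 had -0.58 ± 0.21 (0.149). These 4 and Col11a1 (-1.61 ± 0.71) made up the 5 of 37 genes that were negative at an unadjusted p below 0.05 (11.1% of all genes), beside 1 positive (Col11a2, 0.88 ± 0.40, background 13.6%). Col6a3 had -1.01 ± 0.59, and Col1a1 -0.08 ± 0.54.

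The interaction medians without reconstituted inhibitor replicate 1 were -0.30 over all tested chains, -0.09 for fibrillar, -0.78 for basement membrane and -0.40 for other chains. Col15a1 then had -1.50 ± 0.40, Col4a1 -0.79 ± 0.25, Col4a2 -0.76 ± 0.23 and Col6a3 -0.57 ± 0.20, and 0 were called. DESeq2 called 3 of 37 (Col15a1, Col4a1 and Col4a2, against 7.63% of all genes), limma-voom called 0, and edgeR without reconstituted inhibitor replicate 3 called the same 3 (21.9% of all genes).

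Averaged over both treatments, the MAVS effect had a median of -0.25 over the collagens (fibrillar -0.43, basement membrane -0.14, other -0.20). All 10 tested fibrillar chains were negative, Col3a1 by -0.87 ± 0.31 (edgeR adjusted p 0.211), Col11a1 by -1.01 ± 0.36 (0.203) and Col14a1, of the other class, by -1.03 ± 0.50 (0.366). By edgeR 0 of 37 were called, against 1.56% of all genes (1.09% higher and 0.47% lower), with 6 lower (6.97%) and 1 higher (8.12%) at an unadjusted p below 0.05. Its median over the 37 genes and 1 more that passed the filter was -0.17 without reconstituted inhibitor replicate 1. The fibrillar median was then -0.24 with 9 of 10 negative (Col27a1 had 0.07), the basement membrane median -0.12 and that of other chains -0.24. Col3a1 had -0.70 ± 0.27 and Col11a1 -0.85 ± 0.35.

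A pair of genes nearest to the threshold in that contrast is named here after their values were seen. Col13a1 (chromosome 10, 61838234 to 61979206), a transmembrane collagen of cell junctions, gave 10.99, 11.3 and 11.6 CPM in knockout control, 13.8, 11.3 and 11.1 in knockout inhibitor, 8.31, 7.69 and 6.31 in reconstituted control, and 2.94, 6.87 and 7.94 in reconstituted inhibitor. All 6 reconstituted libraries lay below all 6 knockout libraries, an order found downward for 0.783% of all genes. The averaged difference was -0.81 ± 0.20 (edgeR adjusted p 0.0740). Without reconstituted inhibitor replicate 1 it was -0.65 ± 0.10 and Col13a1 was called (edgeR adjusted p 0.0141, against 1.24% of all genes called). Col13a1 was also called by DESeq2 (0.00236, 5.7%) and limma-voom (0.0466, 1.44%), and by edgeR without reconstituted inhibitor replicate 3 (0.0422, 1.78%). By edgeR it was not called with any other single library left out, under other scalings or filters, or with a replicate block.

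Col9a3 (chromosome 2, 180598102 to 180622192), a FACIT chain best known from cartilage, gave 0.762, 0.776 and 0.653 CPM in knockout control, 0.553, 0.617 and 0.576 in knockout inhibitor, 1.07, 0.914 and 1.07 in reconstituted control, and 1.13, 1.07 and 0.975 in reconstituted inhibitor. All 6 reconstituted libraries lay above all 6 knockout libraries, an order found upward for 1.33% of all genes. Its averaged difference was 0.67 ± 0.15 (edgeR adjusted p 0.0503), and DESeq2 called it (0.0131). It was not called by limma-voom or by edgeR with any single library left out. Without reconstituted inhibitor replicate 1 Col9a3 had 0.64 ± 0.15 (edgeR adjusted p 0.0772). Its exons overlap those of the antisense gene Tcfl5 over 6.07% of their length, and whether the counting used strand is not given, so reads of the 2 genes may not be told apart.

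Averaged over genotypes, the inhibitor effect had a median of -0.25 (fibrillar -0.29, basement membrane -0.20, other -0.21). No collagen gene and 0% of all genes were called by edgeR (smallest adjusted p 0.522), none by DESeq2 or limma-voom, and 2 of 37 were lower at an unadjusted p below 0.05 (Col11a1 and Col4a1, 3.7% of all genes) with 0 higher (4.13%). Col11a1 had -1.22 ± 0.36, Col8a2 -1.05 ± 0.57 and Col6a5 -0.65 ± 0.33. With reconstituted inhibitor replicate 1 left out the median was -0.14 (fibrillar -0.11, basement membrane -0.21, other -0.08), and 1 gene was lower at an unadjusted p below 0.05 (Col11a1, -1.06 ± 0.35). No collagen gene separated the 6 inhibitor libraries from the 6 control libraries in either direction (0.106% and 0.0391% of all genes did, lower and higher).

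Lists of genes that make, link, hold and cut collagen were read beside the chains. In the MAVS contrast under inhibition, 24 of 29 tested genes of collagen synthesis and processing (hydroxylases, chaperones such as Serpinh1, and propeptide proteases) were negative with a median of -0.30. Of 20 cross-linking enzymes and fibril partners 19 were negative, with a median of -0.63, and 14 of 19 basement membrane partners (laminins, nidogens, perlecan and others) with a median of -0.44. Degradation genes had -0.27 (16 of 20 negative), collagen receptors -0.15 (8 of 10) and profibrotic signalling genes -0.17 (18 of 20). The medians without reconstituted inhibitor replicate 1 were -0.13, -0.39, -0.35, -0.17, -0.26 and -0.22.

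In the inhibitor contrast in reconstituted tumours the same lists had medians of -0.19 (synthesis), -0.39 (cross-linking and fibril partners), -0.56 (basement membrane partners), -0.10 (degradation), -0.25 (receptors) and -0.10 (profibrotic signalling), with 0 called by edgeR. Leaving out reconstituted inhibitor replicate 1 gave -0.05, -0.17, -0.35, 0.10, -0.29 and -0.15 in the same order, so that the sign for degradation genes turned. In knockout tumours the basement membrane partners had 0.09 with 17 of 19 positive. The interaction median was -0.54 for basement membrane partners and 0.01 for synthesis genes (-0.43 and 0.16 without that library).

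Over the 6 lists and 7 comparisons 2 genes were called by edgeR, 1 in the MAVS effect under inhibition (0.649% of all genes called) and 1 in the averaged MAVS effect (1.56%). Fn1, fibronectin, the fibril on which collagen I assembles, gave 3965, 3502 and 3049 CPM in knockout inhibitor and 1555, 1849 and 2172 in reconstituted inhibitor, without overlap. It gave 2867, 3995 and 3813 CPM in knockout control and 3777, 3334 and 2698 in reconstituted control. The reconstituted inhibitor libraries thus lay below every other library, an order found for 3.04% of all genes. The MAVS contrast under inhibition was -0.92 ± 0.18 for Fn1 (edgeR adjusted p 0.0462), a call lost without reconstituted inhibitor replicate 1. Pdgfb, a growth factor for mural cells and fibroblasts, was lower in the averaged MAVS effect, with -0.46 ± 0.09 (edgeR adjusted p 0.0273), its group means being 59.1 ± 3.80 and 53.6 ± 2.32 CPM in knockout and 38.5 ± 4.13 and 43.5 ± 7.71 CPM in reconstituted tumours (control and inhibitor, SD, n = 3).

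Markers of the cells that can make collagen are given beside these contrasts, and their part was not tested. The fibroblast markers Dcn, Lum and Postn are also among the fibril partners above, and Fap among the degradation genes. The values of these lists are therefore not separate evidence. In the MAVS contrast under inhibition all 11 fibroblast markers were negative, with a median of -0.71 (-0.53 without reconstituted inhibitor replicate 1). In control tumours 10 of 11 were negative, with a median of -0.55. The inhibitor contrast in reconstituted tumours gave -0.36 for fibroblast markers (-0.15 without that library) and -0.35 for endothelial markers (-0.34 without it), where 8 of 10 were negative. Pericyte and smooth muscle markers had -0.44 (7 of 9 negative; -0.46 without that library). Skeletal muscle markers had 1.88 in that contrast, and -0.01 without replicate 1. Epithelial markers had 0.31 there, and 0.10 without it. In the averaged MAVS effect edgeR called 2 of 6 epithelial markers lower (Cldn4, adjusted p 0.0285, and Epcam, 0.0310), against 0.47% of all genes called lower, and 1 of 6 without that library. Macrophage markers summed to 844 to 1332 CPM, keratinocyte markers to 7.55 to 15.03 (1 of 5 at 0 in all libraries), adipocyte markers to 8.00 to 12.5 (1 of 5 at 0) and Schwann cell markers to 44.3 to 57.5 CPM. Of the remaining lists, cartilage and bone markers summed to 243 to 379.6 CPM (2 of 8 at 0) and tendon markers to 39.5 to 62.7 CPM. The cartilage and bone sum was mostly Acan (125 to 168 CPM as group means), Sox9 and Runx2. Matn3 reached at most 0.381 CPM and Ibsp 1.96 CPM, and Col2a1 was at or under 4 counts in every library.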

How the data were processed

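Tumour RNA was sequenced as 12 TruSeq stranded mRNA libraries, per the labels' protocols. The authors deposited raw counts per gene, and the submitters' processing notes list Trimmomatic, HISAT2, StringTie and GRCm38 (mm10), with no versions. Strand, multi-mapping and pair settings are not given by these sources. Counts were tested in R 4.3.3 with edgeR 4.0.16: filterByExpr, TMM, all 12 libraries, 1 mean per group, quasi-likelihood F-test with 8 residual degrees of freedom before moderation, and Benjamini-Hochberg adjustment over 17885 genes in each of 7 comparisons. SE is the log2 difference divided by the root of F. Of 45777 genes, 27547 had a count. Total counts per library of 52983715 to 69108411 gave TMM factors of 0.920 to 1.03. Replicates differed by a chi-square of at least 32.5 per gene, so none was counted as a duplicate. DESeq2 1.42.0, limma 3.58.1 (voom), other scalings and filters, a replicate block and leaving out libraries were alternatives. Scripts were tested on simulated data. Positions and sequences are from RefSeq GRCm38.p6, and exon lengths from GENCODE M21.

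Values in every library were given for the 4 most abundant genes of each class, any called gene, the 3 largest differences per comparison among genes whose mean log2 CPM was 0 or more, and partner chains. Other genes shown library by library were chosen after their values were seen. The collagen genes and the lists were chosen with earlier results of these data known.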

Additional observations from a re-analysis of the deposited data

How the results depend on the processing

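The main test called 0 collagen genes in each of the 7 comparisons, and 139 alternative counts were also 0, while 12 were higher. DESeq2 called 5 in the inhibitor effect in reconstituted tumours, 7 in the MAVS effect under inhibition, 3 in the interaction and 2 in the averaged MAVS effect. In the last, a stricter filter (1 CPM in 3 libraries), limma-voom and leaving out both extremes of the first principal component (reconstituted inhibitor replicate 1 and reconstituted control replicate 2) each called 1. The gene under the stricter filter, Col9a3, passed it only through reconstituted libraries, where it is higher, so that call supports nothing. Leaving out 1 library at a time gave 0 to 4, 0 to 5, 0 to 3 and 0 to 1 calls in those 4 comparisons and 0 in the other 3. Counts of genes without overlap (an alternative chosen after seeing the data) ran, with 1 library left out, from 2 to 6 higher and 1 to 5 lower for the inhibitor in knockout tumours, 0 to 2 higher for the inhibitor in reconstituted tumours, 3 to 7 higher and 3 to 9 lower for MAVS in control tumours, and 1 to 3 higher for MAVS under inhibition. Without both extremes they were 2 higher and 18 lower for the inhibitor in reconstituted tumours, 6 higher for MAVS in control tumours and 3 higher for MAVS under inhibition. The cause was not tested. Of the named genes' differences 22 became called, 48 others moved by at least the SE of the main difference, and 2497 did neither. Differences that were not called could change sign, as that of Col1a1 under the inhibitor in reconstituted tumours did without replicate 1 (0.03). Deviations of same-numbered libraries had correlations from -0.11 to 0.31 over 18 pairs, with a median of 0.09 against -0.05 for other-numbered pairs. Of 12 libraries 6 were closest to their own number, and these values do not settle whether the numbers pair the libraries. With a replicate block 0 collagen genes were called in all 7 comparisons. Fitting only the libraries compared gave no value for the interaction and the averaged effects.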
